A study of Mus musculus with 9 samples.

Results

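T cells are the lymphocytes that carry a T cell receptor, a pair of antigen-binding chains held at the surface by the CD3 proteins. Kidney T cells were read here from droplet single-cell RNA sequencing of whole mouse kidney, where they were a rare population: 633 of 196925 kept cells, or 0.321%, met the rule for a T cell. The rule counted unique molecular identifiers (UMIs, each standing for 1 captured RNA molecule). Kept cells had 1000 UMIs or more, 500 genes or more, and no more than 15% of UMIs from mitochondrially encoded genes. A kept cell counted as a T cell with at least 2 UMIs summed over Cd3d, Cd3e, Cd3g, Trac and Trbc1, none of the B cell genes Cd79a and Ms4a1, and at most 1 UMI over the macrophage genes C1qa, C1qb and C1qc, the endothelial gene Kdr and the tubule genes Umod, Slc12a1 and Slc12a3.

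The kidneys came from male C57BL/6 mice that were 6 weeks old at the start, with 3 mice in each of 3 groups and 1 library per mouse. AKI-CKD mice received 4 weekly intraperitoneal injections of cisplatin at 8 mg/kg, a course of repeated acute kidney injury (AKI) leading toward chronic kidney disease (CKD), and AKI-CKD+EGT mice received the same cisplatin with ergothioneine (EGT), a sulfur-containing antioxidant amino acid, at 0.5 mg/mL in the drinking water. Control mice received saline. Kidneys were taken after 8 weeks, and the 9 libraries held 216680 barcodes and between 70106161 and 101525691 UMIs each.

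As background, T cells divide into CD8 cells, which kill target cells and release chemokines, and CD4 cells, which steer other immune cells through cytokines and include the regulatory T cells that express Foxp3 and restrain responses. Naive and central memory T cells pass between blood and lymphoid tissue with the help of the receptor Ccr7, while tissue-resident and effector memory cells lose this receptor and gain Cxcr6 and effector molecules. In the kidney, T cells are found mainly between the tubules, and they gather there after toxic injury.

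The rule selected cells on 5 T cell genes, so the levels of those 5 genes are not a finding. Members carried a median of 5 UMIs of these genes and at most 39. At the edge of the rule, 107 members had exactly 2 such UMIs and 74 had 3, while 414 kept cells had exactly 1 and met the other limits. Genes that the rule did not use served to check the name. Trbc2, the other constant region of the T cell receptor beta chain, was detected in 83.1% of members, in 66.4% of the members with exactly 2 rule UMIs and in 11.1% of the cells with 1. It was absent from the 536 B cells (at least 2 UMIs of B cell genes) and was detected in 0.0910% of the 182462 proximal tubule cells (at least 3 UMIs of proximal tubule genes). Both sets were limited to cells without any UMI of the 5 rule genes. Low shares of other T cell genes in them are therefore partly set by that choice.

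Other T cell genes were distributed in the same way. Thy1, a surface glycoprotein of T cells, was detected in 49.8% of members and 0% of B cells, and Lck, the kinase that starts T cell receptor signalling, in 38.2% and 1.31%. Cd2, an adhesion receptor of lymphocytes, was shared more widely, with 54.2% of members and 39.2% of B cells. Nkg7, a protein of cytotoxic granules, was detected in 54.2% of members against 0.0882% of proximal tubule cells, whose median depth was higher (2839 against 2316 UMIs). With every cell thinned to 1000 UMIs at random, Nkg7 was expected in 37.3% of members over all draws, with an SD of 1.11 between draws, and a single draw gave 0.0406% of proximal tubule cells. Of the markers of other cell types looked at across the 633 members, Col1a1 (fibroblasts) and Nphs1 (podocytes) had no UMI, Cd79b (B cells) had 1, and Lyz2 and Csf1r (macrophages) had 6 and 8. Others were present: the endothelial gene Pecam1 had 35 UMIs in 28 members (17.2 CPM, or UMIs scaled to a sum of 1e+06, against 6.48 in other kept cells), the antigen presentation gene Cd74 had 559 in 51 members (274 against 202 CPM), and the neutrophil gene S100a8 had 142 in 3 members (69.7 against 4.09 CPM).

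**Figure D1:**
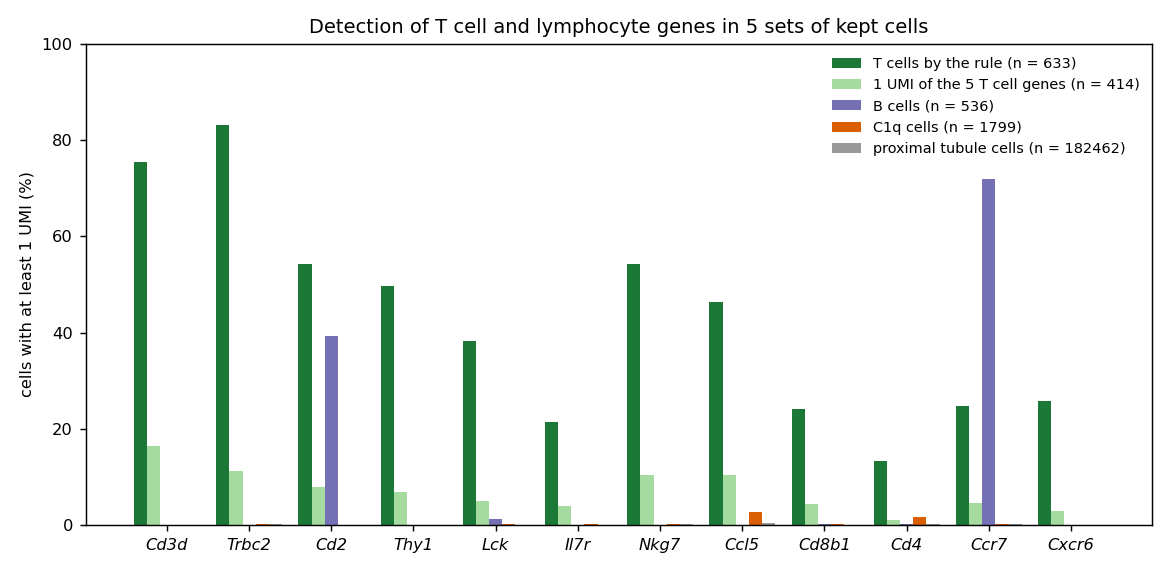
Percent of cells with at least 1 UMI (vertical axis) of T cell and lymphocyte genes in T cells by the rule, cells with 1 UMI of the 5 T cell genes, B cells, C1q cells (macrophages) and proximal tubule cells. The B cells, C1q cells and proximal tubule cells were chosen without any UMI of the 5 T cell genes, so Cd3d is absent from them by choice. Trbc2, which the rule did not use, was detected in 83.1% of T cells and 11.1% of cells with 1 UMI, while Ccr7 was more frequent in B cells, at 72.0%, than in T cells, at 24.6%.

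The genes that led the members over all other kept cells, among genes at or above 100 CPM in members, were the 5 rule genes with Trbc2, Ifng, Cd8b1, Lat, Ms4a4b, Cd28, A630014C17Rik, Thy1, Cxcr6, Xcl1, Il7r, Ctsw, Icos, Sh2d2a and Lck. Trbc2 stood at 1082 CPM in members and 1.08 CPM in other kept cells, and Ifng, the cytokine interferon gamma, at 166 and 0.181 CPM. The list was led by T cell receptor and CD3 genes, costimulatory receptors (Cd28, Icos) and the chemokine gene Xcl1. Since members and the rest were separated on these same counts, the ratios are a description without a test.

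RNA of proximal tubule cells, the most abundant kidney cells, was present in the members. The 26 genes of a proximal tubule list made up a median of 3.63% of a member's UMIs, from 0.241% to 35.8%, and 372 members were under 5%. By mouse the pooled share in members was 12.7%, 9.65% and 9.69% among Controls, 8.55%, 5.84% and 9.74% in AKI-CKD mice, and 4.87%, 7.52% and 5.78% with EGT. It was thus highest in the Control mouse 1 library, and it was below every Control value in all AKI-CKD+EGT libraries. The 26 genes are a part of tubule RNA, so these shares are not the share of all tubule RNA. Kap, abundant in proximal tubule cells at 90455 CPM, was detected in 632 members, at 41789 CPM. Mitochondrially encoded genes made up from 1.37% to 8.16% of member UMIs, with both extremes inside single groups (Control mouse 3 and AKI-CKD+EGT mouse 3). Macrophage and monocyte genes, 21 in all, summed to between 423 and 1465 CPM in the members of 8 mice and to 4613 CPM in AKI-CKD mouse 3, where 1 member of 10328 UMIs held 329 UMIs of Cd74 and 163 of Ccl17. The part of any of these in the differences between groups was not tested, and the values are repeated where a result moved with them.

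The first comparison asked whether T cells took a larger share of the kidney after cisplatin. The Control mice had 49, 64 and 40 T cells, the AKI-CKD mice 50, 126 and 91, and the AKI-CKD+EGT mice 49, 133 and 31. As a share of kept cells this was 0.213%, 0.233% and 0.163% among Controls, 0.216%, 0.653% and 0.391% in AKI-CKD mice, and 0.285%, 0.611% and 0.180% with EGT. In AKI-CKD, 2 mice lay above all Controls and 1 lay among them, and the AKI-CKD+EGT mice spanned nearly the whole range of the other groups.

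The mean share was 0.203% ± 0.0361 (SD, n = 3) among Controls, 0.420% ± 0.220 among AKI-CKD mice and 0.359% ± 0.225 with EGT. The difference of 0.217 percentage points between AKI-CKD and Control, a 2.07-fold ratio, came with overlap between the mice (two-sided exact permutation test, p = 0.2, adjusted p = 0.6 over 6 tests). The groups did not overlap when members with any UMI of the 7 other-cell genes were left out (0.374% against 0.146%, a 2.57-fold ratio) or when only members under 5% proximal tubule UMIs were counted (0.259% against 0.0964%, a 2.69-fold ratio), each with the smallest exact permutation p of 0.1. The difference was smaller in cells thinned to 1000 UMIs (0.127 percentage points) and without AKI-CKD mouse 2 (0.10). Leaving out members with a UMI of the 7 genes removed 19, 18 and 6 of the 49, 64 and 40 Control T cells. It removed 5, 21 and 2 of the 50, 126 and 91 AKI-CKD T cells. Members under 5% proximal tubule UMIs numbered 20, 32 and 21 in Controls and 29, 86 and 48 in AKI-CKD mice. The part of tubule RNA in these separations was not tested. The AKI-CKD+EGT mean differed from AKI-CKD by -0.0612 percentage points (exact p = 0.7, adjusted p = 0.9). With 3 mice against 3 this test cannot give a p below 0.1. Fewer T cells and a lower recovery of T cells from the tissue cannot be told apart in such shares.

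The limit on tubule RNA also touched the comparison with EGT. Of 756 kept cells with at least 2 T cell UMIs, 7 were lost to the B cell genes and 116 to the 7 other genes, of which 33 and 31 were in AKI-CKD+EGT mice 2 and 3 and at most 12 in any other mouse. Umod, which encodes a protein secreted by the loop of Henle, was present in 94 of the 116. Umod was also detected in 50.7% of the proximal tubule cells of AKI-CKD+EGT mouse 3, against 9.56% to 23.6% in the other 8 mice. Without the limit on the 7 genes the AKI-CKD+EGT difference from AKI-CKD changed sign, to 0.0340 percentage points.

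Among lymphocytes alone, taken as T cells and B cells together, T cells made up 55.7%, 56.6% and 51.3% among Controls, 61.0%, 53.8% and 68.4% in AKI-CKD mice, and 45.0%, 51.0% and 43.7% with EGT. All 3 AKI-CKD+EGT mice lay below all 3 AKI-CKD mice under this rule. It allows T cells and B cells alike at most 1 UMI of the 7 other-cell genes. The means were 54.5% ± 2.86, 61.1% ± 7.29 and 46.5% ± 3.89 (SD, n = 3 each), and the difference of -14.6 percentage points between AKI-CKD+EGT and AKI-CKD gave p = 0.1, the smallest value the exact permutation test allows. With that limit lifted for T cells but kept for B cells, the shares were 48.7%, 56.5% and 60.8% with EGT against 61.9%, 56.1% and 69.6% in AKI-CKD mice. The groups then overlapped, and the difference was -7.20 percentage points (exact permutation p = 0.3). With the limit on both kinds of cell AKI-CKD differed from Control by 6.55 percentage points (exact permutation p = 0.3).

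**Figure D2:**
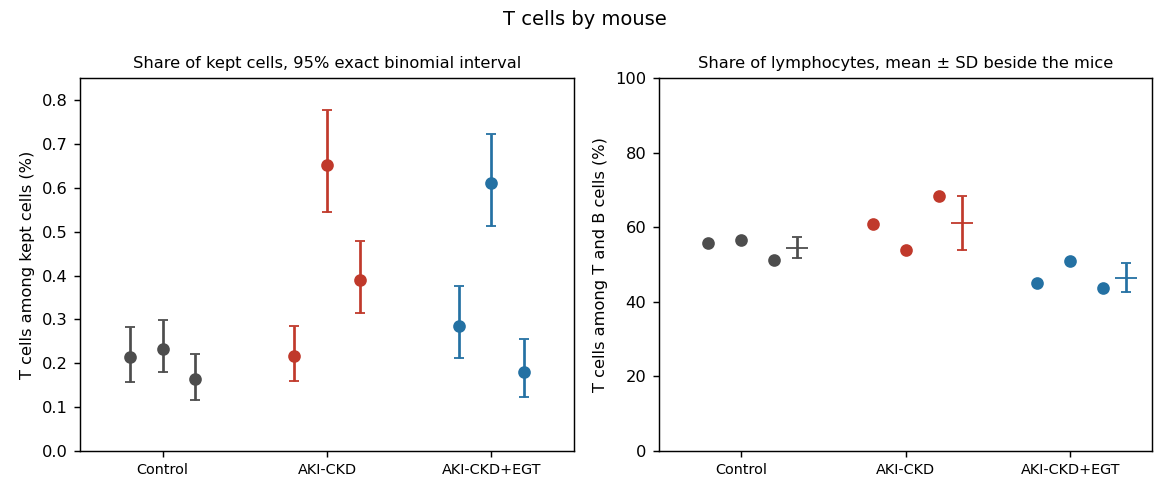
T cells as a percent of kept cells (left, points are mice with 95% exact binomial intervals that cover counting error only) and as a percent of T and B cells together (right, with group mean ± SD), by group. In the left panel 1 AKI-CKD mouse at 0.216% sits among the Controls. In the right panel the AKI-CKD+EGT mice at 43.7% to 51.0% lie below the AKI-CKD mice at 53.8% to 68.4%. This separation was not present with the limit on the 7 other-cell genes lifted for T cells only.

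The members divided along Ccr7, the chemokine receptor that brings T cells into lymph nodes. Ccr7 was detected in 156 members and not in 477, with like depths (medians of 2495 and 2275 UMIs). The Ccr7 cells were present in every mouse, with 12, 20 and 9 among Controls, 13, 38 and 19 in AKI-CKD mice, and 13, 29 and 3 with EGT. Because cells were divided on a gene measured in the same cells, all values along this axis are a description without a test.

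Genes of naive and central memory T cells were more often detected with Ccr7. S1pr1, which directs exit from lymph nodes, was detected in 25.0% of Ccr7 cells and 5.03% of the others. The transcription factor genes Lef1, Tcf7 and Klf2 followed, with 43.6%, 39.1% and 78.8% of Ccr7 cells against 12.4%, 15.9% and 37.5%. Ms4a4b differed little, with 76.9% against 75.3% of cells and a level of 610 against 674 CPM. Summed over 13 naive and central memory genes other than Ccr7, the level in Ccr7 cells exceeded that in the others in 9 of 9 mice, from 2333 against 2102 CPM in AKI-CKD mouse 1 to 4747 against 2027 CPM in AKI-CKD+EGT mouse 2.

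Most effector and residency genes ran the other way. Cxcr6, a receptor of tissue-resident T cells, was detected in 1.28% of Ccr7 cells and 33.8% of the others, and only 2 cells had both receptors. Cxcr3, S100a6 and S100a4 were at 0.641%, 2.56% and 2.56% with Ccr7 and at 23.5%, 62.5% and 44.7% without. The chemokine gene Ccl5 was at 3.85% and 60.2%, and Xcl1, a chemokine that attracts cross-presenting dendritic cells, was detected in 0 of 156 and 146 of 477 cells.

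By mouse, the summed resident and effector memory list of 21 genes was lower with Ccr7 in 9 of 9 mice, most narrowly in Control mouse 3 (4760 against 5371 CPM). The summed cytotoxic list of 26 genes was also lower with Ccr7 in 9 of 9 mice, and ranged from 0 to 2004 CPM with Ccr7 and from 3450 to 9558 CPM without. The highest value, of AKI-CKD mouse 1, was 5111 CPM without 1 cell rich in chemokine RNA that is described with Ccl4, and the ranges did not overlap either way.

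**Figure D3:**
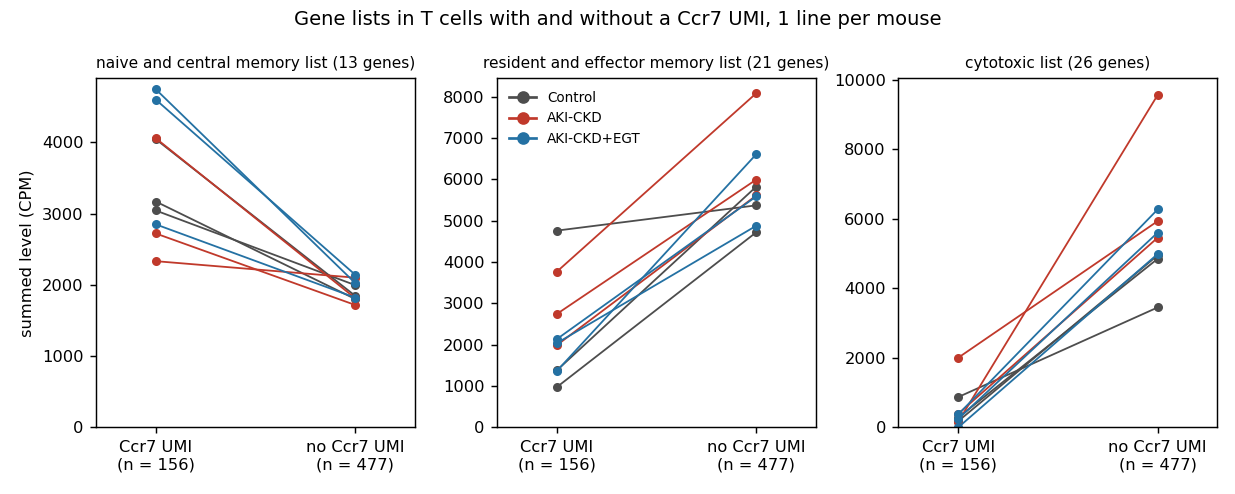
Summed level in CPM (vertical axis) of the naive and central memory list (without Ccr7), the resident and effector memory list and the cytotoxic list in T cells with and without a Ccr7 UMI, with 1 line per mouse coloured by group. All 9 lines fall from left to right in the first panel and rise in the other panels, where cytotoxic levels reach at most 2004 CPM with Ccr7 and at least 3450 CPM without.

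Most members could not be assigned to CD8 or CD4 cells at this depth. A Cd8a or Cd8b1 UMI without Cd4 was found in 170 members, a Cd4 UMI without Cd8a and Cd8b1 in 80, both in 4, and neither in 379 (59.9%). Among the 250 typed cells, CD8 cells made up 68.0% (95% exact binomial interval 61.8% to 73.7%). CD8 typing drew on Cd8a and Cd8b1 and CD4 typing on Cd4 alone, so this share also depends on how readily each RNA was captured. The interval pools the cells of all mice and covers counting error only, not the spread between mice. By mouse the CD8 share was 69.2%, 45.0% and 64.3% among Controls, 68.8%, 77.2% and 65.0% in AKI-CKD mice, and 85%, 67.2% and 50% with EGT.

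These shares overlapped between all groups. The means were 59.5% ± 12.8, 70.3% ± 6.25 and 67.4% ± 17.5 (SD, n = 3), with differences of 10.8 percentage points for AKI-CKD against Control (exact permutation p = 0.3) and -2.90 for AKI-CKD+EGT against AKI-CKD (exact permutation p = 0.9), and adjusted p-values of 0.6 and 0.9. In the cells under 5% proximal tubule UMIs the first difference had the opposite sign, -5.28 percentage points.

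CD8-typed and CD4-typed members of the same mouse differed in 4 genes that were not used for typing. The comparison was chosen after the data were seen. In edgeR's quasi-likelihood test with the mouse as a block, 5 of 454 tested genes (1.10%) passed an adjusted p of 0.05, of which Cd8b1 was itself used for typing. Ccl5 stood at 4525 CPM in the pooled CD8-typed and 620 CPM in the pooled CD4-typed cells, with a log2 difference of 2.93 ± 0.30 (SE), and was higher in CD8-typed cells in 9 of 9 mice (edgeR adjusted p = 9.76e-07). Nkg7 stood at 916 and 308 CPM (log2 difference 1.55 ± 0.33, higher in 7 of 9 mice, edgeR adjusted p = 0.0113).

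The other called genes were higher in CD4-typed cells. Junb, an immediate early transcription factor, stood at 2139 CPM in CD4-typed and 1074 CPM in CD8-typed cells and was higher in CD4-typed cells in 9 of 9 mice (log2 difference -0.96 ± 0.16, edgeR adjusted p = 0.000529). Rgs2, which dampens G protein signalling, stood at 870 and 416 CPM (log2 difference -1.05 ± 0.25, edgeR adjusted p = 0.0360). The calls of Nkg7 and Rgs2 did not hold without every mouse, with adjusted p-values of up to 0.0661 and 0.143 when 1 mouse was left out.

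Several lineage genes were too sparse for the test. The granzyme genes Gzma and Gzmb had 90 and 29 UMIs in CD8-typed and 0 in CD4-typed cells, and Klrd1 (the NK receptor CD94) had 25 and 0. Ccl4 had 196 and 3 UMIs and Ly6c2, a surface antigen of memory CD8 cells, 344 and 9, and both were higher in CD8-typed cells in 9 of 9 mice. The regulatory factor gene Foxp3 had 0 and 12 UMIs, and Tnfrsf4 (the costimulatory receptor OX40) had 1 and 61, the latter from 4 mice.

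**Figure D4:**
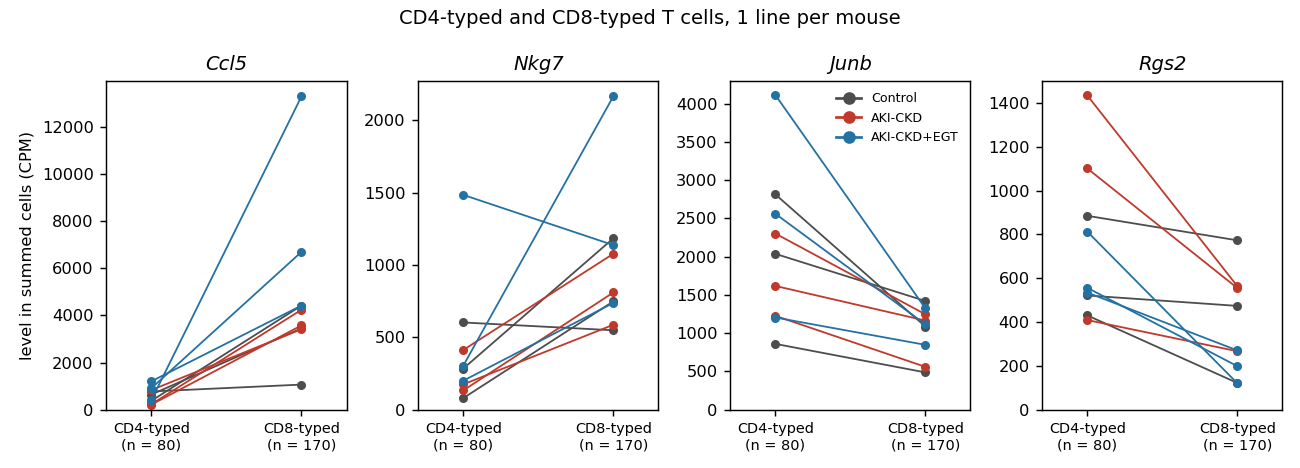
Level in CPM (vertical axis) of Ccl5, Nkg7, Junb and Rgs2 in the summed CD4-typed and CD8-typed T cells of each mouse, with 1 line per mouse coloured by group. Ccl5 rises from CD4-typed to CD8-typed cells and Junb falls in all 9 mice, while Nkg7 is lower in CD8-typed cells in 2 mice.

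The share of members with an Nkg7 UMI, a granule protein of cytotoxic cells, overlapped between the groups. In a single draw of 1000 UMIs per cell it was 32.7%, 31.3% and 35.0% among Controls, 34%, 37.3% and 39.6% in AKI-CKD mice, and 42.9%, 33.1% and 38.7% with EGT. The means were 33.0% ± 1.89, 37.0% ± 2.80 and 38.2% ± 4.91 (SD, n = 3). The differences were 3.99 percentage points between AKI-CKD and Control (exact permutation p = 0.2, adjusted p = 0.6) and 1.26 between AKI-CKD+EGT and AKI-CKD (exact permutation p = 0.8, adjusted p = 0.9). As the mean over all draws it was 32.1% to 37.7% in Control, 31.4% to 40.6% in AKI-CKD and 36.2% to 44.8% with EGT, and the differences in mean were 2.11 and 3.14 percentage points (exact permutation p = 0.6 and 0.5), with overlap in both. Without thinning the means were 54.3%, 52.8% and 56.3%, so that the first difference turned to -1.53 percentage points.

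Genes of rarer T cell kinds and of NK cells were detected in few members. Trdc, the constant region of the delta receptor chain, was detected in 12 members, Gzmk in 48, Gzmb in 33, Gzma in 24 and the NK receptor genes Klrb1c and Ncr1 in 23 and 6. The 107 members with exactly 2 rule UMIs held 9 of the 24 Gzma cells, 9 of the 23 Klrb1c cells and 4 of the 6 Ncr1 cells. They held 1 of the 48 Gzmk cells. Whether NK cells were among them was not tested. The proliferation gene Mki67 was detected in 6 members.

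Foxp3, the master regulator of regulatory T cells, was detected in 0 of 153 Control members, which allows a share of cells with a Foxp3 UMI of up to 1.96% and sets no limit on cells whose Foxp3 RNA was not captured, in 12 of 267 AKI-CKD members (4.49%) and in 4 of 213 AKI-CKD+EGT members (1.88%). The share in proximal tubule cells was 0.0510%, and the share of all members expected after thinning to 1000 UMIs was 1.11%. The 12 AKI-CKD cells came from all 3 mice (1, 6 and 5 cells), and the AKI-CKD+EGT cells from 2 mice (2 each). Pooled over mice, the Foxp3 level of 22.9 CPM in AKI-CKD was at least 3.95-fold higher than the floor of 3 counts over the Control group. This is a comparison of pooled counts, and the difference between conditions was not tested.

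The 16 Foxp3 cells carried other regulatory genes. Tnfrsf4 was detected in 13, the inhibitory receptor gene Ctla4 in 11, Capg in 11, the transcription factor gene Ikzf2 in 10 and the folate receptor gene Izumo1r in 9. Cd4 was detected in 5 and Cd8b1 in 0. These cells were deeper than the other members, with a median of 3379 against 2309 UMIs. Over all 633 members Tnfrsf4, Ctla4, Capg, Ikzf2 and Izumo1r were detected in 58, 83, 67, 33 and 50 cells. Of other regulatory genes, Il2ra was detected in 13 members and Il10 in 1, of Control mouse 2.

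Between AKI-CKD and Control, no gene in T cells passed the test across all genes. edgeR called 0 of 2837 tested genes (0%), with a smallest adjusted p of 0.103, while 313 genes (11%) had an unadjusted p under 0.05 and DESeq2 called 4 (Capg and Tnfrsf4 higher, Magi2 and Txk lower). The values of all 3 mice lay above Control in 225 genes (7.93%) and below in 235 (8.28%). The genes given here were therefore taken by a fixed rule, as those of smallest unadjusted p without overlap between the mice, and none was significant after adjustment. Their levels are CPM scaled by edgeR's library factors.

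The first 2 of the higher genes, Capg and Tnfrsf4, belong to the regulatory T cell list. That list was chosen with earlier results of these data known, so their place in it is a description. Capg, an actin-capping protein found in activated and regulatory T cells, was at 0, 17.1 and 25.6 CPM among Controls, 97.9, 123 and 95.9 CPM in AKI-CKD mice, and 71.5, 44.0 and 30.3 CPM with EGT. All AKI-CKD mice lay above all mice of both other groups. The log2 difference was 2.92 ± 0.56 (SE) between AKI-CKD and Control (edgeR adjusted p = 0.103) and -1.09 ± 0.44 between AKI-CKD+EGT and AKI-CKD (edgeR adjusted p = 0.409). In other kept cells Capg averaged 3.64, 4.69 and 5.60 CPM in the 3 groups.

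Tnfrsf4 was at 53.2, 0 and 6.40 CPM among Controls, 157, 174 and 86.9 CPM in AKI-CKD mice, and 71.5, 67.3 and 101 CPM with EGT, a log2 difference of 2.69 ± 0.60 between AKI-CKD and Control (edgeR adjusted p = 0.120). Over the alternatives it ranged from 2.12 without Control mouse 2 to 5.29 without Control mouse 1 (edgeR adjusted p = 0.289 and 0.00928). A single Foxp3 cell held 18 of the 24 Tnfrsf4 UMIs of AKI-CKD mouse 1. Without this cell that mouse stood at 40.7 CPM, below the 53 CPM of Control mouse 1 on the unscaled CPM.

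Over the 13 genes of the regulatory list, the summed level was 180, 203 and 183 CPM among Controls, 600, 684 and 516 CPM in AKI-CKD mice, and 528, 374 and 450 CPM with EGT. Every mouse given cisplatin, with or without EGT, lay above every Control mouse. The means were 189 ± 12.5, 600 ± 83.8 and 450 ± 77.0 CPM (SD, n = 3). Without Capg and Tnfrsf4 they were 154 ± 30.1, 361 ± 33.8 and 320 ± 59.6 CPM, and over the 9 genes too low to be tested singly 62.6 ± 13.2, 187 ± 24.2 and 182 ± 55.6 CPM. The same Foxp3 cell held 46 of the 94 list UMIs of AKI-CKD mouse 1, and without it that mouse stood at 326 CPM over the 13 genes and 197 CPM without Capg and Tnfrsf4, both still above all Controls, but at 61.1 CPM over the 9 genes, among the Controls at 47.4 to 71.4 CPM. Of the 4 genes that passed the filter, all stood higher in AKI-CKD than in Control (Tnfrsf18 and Ctla4 beside the former), none was called, and they passed partly through the group where they are high. The sum carries no test, and its list was chosen with earlier results of these data known.

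Among the other genes named in this way, the chemokine gene Ccl4 was at 122, 131 and 70.4 CPM in Control mice and 1161, 194 and 321 CPM in AKI-CKD, against 167, 80.3 and 50.5 CPM in AKI-CKD+EGT. The 1161 CPM rested on 1 cell of 2443 UMIs, in which Ccl4, Xcl1, Ifng and Ccl3 had 149, 130, 83 and 72 UMIs, or 17.8% of its RNA. This cell met the rule through 2 Trbc1 UMIs alone, and had no UMI of Cd3d, Cd3e, Cd3g, Trac or Trbc2. Without this cell the mouse stood at 188 unscaled CPM, still above all Controls, and with at least 3 T cell UMIs required the log2 difference between AKI-CKD and Control was 0.94 in place of 2.29. Nfkbia, the NF-kappaB inhibitor gene induced by T cell activation, was at 261, 268 and 141 CPM among Controls, 398, 687 and 620 CPM in AKI-CKD mice, and 256, 513 and 101 CPM with EGT (log2 difference 1.35 ± 0.39 between AKI-CKD and Control, edgeR adjusted p = 0.274). Gm42674, Chchd1 and Emp3 were also higher, by 1.70, 1.33 and 1.13 on the log2 scale, and Cd74 rested on few cells, with 58.9% of its UMIs in 1 cell of AKI-CKD mouse 3.

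In the other direction Magi2, a scaffold protein of cell junctions, was at 149, 108 and 76.8 CPM among Controls, 13, 16.4 and 15 CPM in AKI-CKD mice, and 77.5, 62.2 and 253 CPM with EGT. The log2 differences were -2.84 ± 0.56 and 2.85 ± 0.57 (edgeR adjusted p = 0.103 and 0.160), and ranged from -4.67 to -2.52 and from 2.13 to 4.13 over the alternatives. The AKI-CKD mice lay below all mice of both other groups. Magi2 was also present in other kept cells, at means of 97.2, 60.2 and 115 CPM, where the mice of the groups overlapped. Atxn1, Fut9, Alas1, Sdc4, Ptprd, Ankrd11 and Rere were lower, with log2 differences of -0.98 to -1.91 (Ptprd, at -1.37, reached -2.23 in an alternative), and none passed adjustment.

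**Figure D5:**
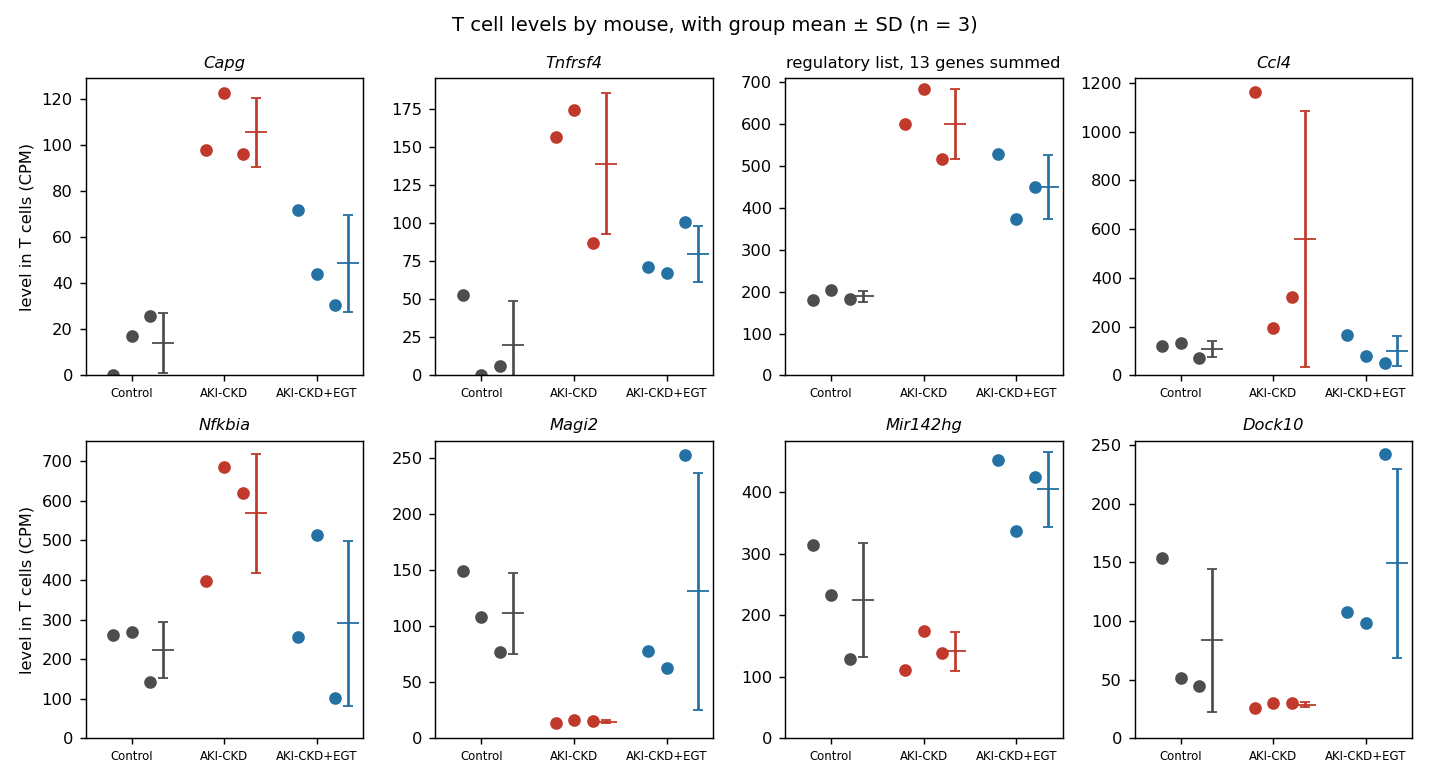
T cell level in CPM (vertical axis, lower ends of error bars cut at 0) of 7 genes and of the summed regulatory list in each mouse, with group mean ± SD (n = 3). The regulatory list lies at 180 to 203 CPM in Control mice and 374 to 684 CPM in the 6 cisplatin-treated mice (AKI-CKD mouse 1 at 326 CPM without 1 cell), Ccl4 has 1 mouse at 1161 CPM, and Magi2 and Dock10 are lowest in AKI-CKD.

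Between AKI-CKD+EGT and AKI-CKD, edgeR also called 0 of 2837 genes (0%), with a smallest adjusted p of 0.160, 303 genes (10.7%) at an unadjusted p under 0.05, and 3 calls by DESeq2 (Dock10, Magi2 and Mir142hg, all higher). All 3 mice lay above AKI-CKD in 262 genes (9.24%) and below in 241 (8.49%). This comparison shares its AKI-CKD mice with the former one, so a gene far out in those mice moves in both.

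Mir142hg, the host transcript of the microRNA miR-142 of blood cells, was at 111, 174 and 138 CPM in AKI-CKD and 453, 337 and 424 CPM in AKI-CKD+EGT, with 314, 233 and 128 CPM in Control. The groups of the comparison did not overlap (log2 difference 1.47 ± 0.29, edgeR adjusted p = 0.160). Dock10, a guanine nucleotide exchange factor of lymphocytes, was at 26.1, 30.0 and 30.0 CPM in AKI-CKD and 107, 98.4 and 243 CPM in AKI-CKD+EGT, with 154, 51.2 and 44.8 CPM in Control (log2 difference 2.21 ± 0.49, edgeR adjusted p = 0.160). Nudt4, Msi2, Stk4 (the Hippo kinase MST1, needed for naive T cell survival), Gm2245 and Ube2h were higher by 1.42 to 2.33 on the log2 scale. Ccl4, Denr, Gapdhrt, Guca2b, AI314278, Cela1, Pecr and Rps28 were lower, with log2 differences of -0.83 to -2.40. The last was that of Ccl4, which was -0.88 with at least 3 T cell UMIs required and -1.37 without AKI-CKD mouse 1, where 149 of its 178 UMIs lay in the cell described. Over the alternatives Denr, Cela1 and Msi2 came as near to 0 as -0.79, -0.50 and 0.97. None of these passed adjustment, and AI314278, Cela1, Guca2b and Rps28 were also lower without overlap in other kept cells.

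T cell gene groups were described by the number of their tested genes on each side and by their median log2 difference, beside medians of 0.00 and 0.02 over all 2837 genes in the 2 comparisons. No gene of any list was called by edgeR in either comparison. For T cell receptor and proximal signalling genes other than the 5 genes of the rule, 11 of 22 were higher in AKI-CKD than in Control (median -0.04) and 18 of 22 were higher with EGT than in AKI-CKD alone (median 0.29). With the rule genes included the 2 medians were 0.11 and 0.20. In cells under 5% proximal tubule UMIs these were -0.085 and 0.0034. Of the coreceptors, Cd8b1, Cd8a and Cd4 were all higher in AKI-CKD, with Cd8b1 at 106, 108 and 147 CPM in Control mice and 222, 308 and 186 CPM in AKI-CKD (log2 difference 1.00 ± 0.33, edgeR adjusted p = 0.274). The coreceptor median was 0.85, and 0.13 in cells under 5% proximal tubule UMIs.

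Of the cytotoxic and NK receptor genes, 9 of 12 were higher in AKI-CKD than in Control (median 0.33). The summed list was at 3733, 3339 and 3009 CPM among Controls, 6214, 4133 and 4920 CPM in AKI-CKD mice, and 4813, 4509 and 4557 CPM with EGT. All 6 cisplatin-treated mice lay above all 3 Controls, but in AKI-CKD mouse 1 the cell without CD3 RNA described with Ccl4 held 461 of 973 list UMIs, and without it that mouse stood at 3322 CPM, among the Controls. Without the cell of most list UMIs in every mouse, Controls stood at 2841, 2908 and 2587 CPM. The AKI-CKD mice then stood at 3322, 3898 and 4861 CPM, without overlap. The sum carries no test. The most abundant gene of the list, Ccl5, was at 1616, 1696 and 1375 CPM among Controls, 1866, 2270 and 2280 CPM in AKI-CKD mice, and 2075, 2916 and 2951 CPM with EGT (log2 difference 0.45 ± 0.21 between AKI-CKD and Control, edgeR adjusted p = 0.433). Between AKI-CKD+EGT and AKI-CKD, 6 of 12 genes were on either side (median -0.41, positive when 3 T cell UMIs were required).

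Genes of NK and innate lymphoid cells, which are other cells that share part of the cytotoxic genes, were present as well. Of the 15 genes of this list 13 had a UMI in members, and the NK receptor gene Klrb1c had 35 UMIs in 23 members. The summed level was 599, 302 and 163 CPM among Controls, 236, 227 and 898 CPM in AKI-CKD mice, and 301, 348 and 204 CPM with EGT. The groups overlapped. Of the 3 genes tested, the signalling adaptors Tyrobp and Fcer1g stood higher and Rora lower in AKI-CKD than in Control (median 1.04), and with EGT the median was -1.02 against AKI-CKD. Both medians took the other sign when 3 T cell UMIs were required or without AKI-CKD mouse 3 (-1.46 and -1.18, and 0.62 and 0.57). The part of such cells in the cytotoxic levels was not tested.

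Resident and effector memory genes were higher in 12 of 15 cases in AKI-CKD (median 0.26), and naive and central memory genes in 6 of 13 (median -0.07). The naive and central memory median took the other sign in 6 of 19 other settings. Ccr7 itself was at 154, 256 and 134 CPM among Controls, 241, 352 and 261 CPM in AKI-CKD mice, and 149, 243 and 50.5 CPM with EGT, with overlap in both comparisons. Interferon-stimulated genes were higher in 12 of 16 cases in each comparison (medians 0.33 and 0.28, the second negative in cells under 5% proximal tubule UMIs and without AKI-CKD+EGT mouse 1). Cytokine receptor and STAT genes were lower in 9 of 11 cases in AKI-CKD (median -0.41) and higher in 10 of 11 in AKI-CKD+EGT (median 0.49, but -0.22 in cells under 5% proximal tubule UMIs). Immediate early genes were higher in 13 of 21 cases in each (medians 0.21 and 0.16, but -0.19 and -0.11 in cells under 5% proximal tubule UMIs). Of 7 tested apoptosis regulators of the Bcl2 family, 4 were higher and 3 lower in each comparison (medians 0.11 and 0.19). The first median took the other sign in 8 of 19 other settings. Within this list Bcl2, which protects lymphocytes from apoptosis, was at 106, 102 and 51.2 CPM in Control mice, 26.1, 43.6 and 38.9 CPM after cisplatin and 131, 77.7 and 70.7 CPM after cisplatin with EGT. The AKI-CKD mice lay below all others, and neither difference was called (log2 differences -1.20 ± 0.40 and 1.28 ± 0.40, edgeR adjusted p = 0.274 and 0.291).

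The group means of ribosomal protein and mitochondrially encoded genes stood in the same order in T cells and in the other kept cells. Ribosomal protein genes were higher in AKI-CKD than in Control in 79 of 80 cases (median 0.40, 15 at an unadjusted p under 0.05) and lower with EGT than in AKI-CKD alone in 79 of 80 (median -0.31). Summed, they stood at 143191, 221270 and 201944 CPM among Controls, 238347, 265489 and 231064 CPM in AKI-CKD mice, and 239616, 200296 and 174527 CPM with EGT. The lowest value belonged to Control mouse 1, whose members also had the highest proximal tubule share. In other kept cells the means were 72875, 91010 and 76059 CPM, in the same order. The medians in T cells kept their sign in all 19 other settings, but not their size. In cells under 5% proximal tubule UMIs they were 0.13 and -0.50.

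Mitochondrially encoded genes were lower in AKI-CKD than in Control in 11 of 11 cases (median -0.60) and higher with EGT than in AKI-CKD alone in 11 of 11 (median 0.93), with overlap between mice in every case. Their sum in other kept cells followed the same order, with means of 38678, 25117 and 47482 CPM. Nuclear genes of oxidative phosphorylation were higher in AKI-CKD than in Control in 55 of 77 cases (median 0.08, negative in cells under 5% proximal tubule UMIs) and lower with EGT than in AKI-CKD alone in 66 of 77 cases (median -0.26), and the median was 0.20 in cells under 5% proximal tubule UMIs. Proximal tubule genes themselves were lower in 18 of 25 and 22 of 25 cases, with medians of -0.23 and -0.27, the second positive in cells under 5% proximal tubule UMIs.

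Whether a change in T cells differed from that in the other kept cells of the same mice was tested directly, as an interaction in edgeR with the mouse as a block. The difference was called for 14 of 17759 genes (0.0788%) between AKI-CKD and Control and for 32 (0.18%) between AKI-CKD+EGT and AKI-CKD, of which 3 (Cd3d, Cd3g and Trbc1) were genes of the rule and are no finding. In this fit the spread of each gene was taken wholly from the trend over genes and not from its own mice. All 163 UMIs of the called gene Ccl17 lay in 1 cell. With an estimate of the spread that is robust to single outlying genes, 4 and 10 were called (Cd3d among the 10), and over the 2837 genes that passed the filter in T cells 0 and 0. Nfkbia was called in both comparisons in the first fits and in the robust fits, but not against C1q cells, and in cells under 5% proximal tubule UMIs only in the comparison with EGT. Its mean level went from 222 to 555 to 295 CPM over Control, AKI-CKD and AKI-CKD+EGT in T cells and from 98.2 to 126 to 149 CPM in other kept cells. Clec2d, a ligand of NK receptors, went from 83.8 to 136 CPM between Control and AKI-CKD in T cells and from 85.9 to 39.0 CPM in other kept cells, and it was not called against C1q cells or in cells under 5% proximal tubule UMIs.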

How the data were processed

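Libraries were made by droplet capture of poly(A) RNA on the DNBelab C platform. The deposited files hold raw UMI counts per gene and barcode, which the authors produced with PISA 1.0 and, per the submitters' notes, genome build GRCm39. The deposited matrices began at about 1000 UMIs per barcode, and the study, which states the same limits on cells, reports fewer kept cells. Barcode names are running numbers that recur between libraries (57060 names of kept cells) and carry no sequence.

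Members were selected in each library by the rule in the text and their counts summed per mouse (97876 to 383281 UMIs). No doublet caller was run; leaving out the 10% of members with most UMIs was an alternative. Genes were tested with edgeR 4.0.16 (TMM, filterByExpr, quasi-likelihood test, Benjamini-Hochberg adjustment, threshold 0.05) on all 9 mice, after a test on simulated data. Shares were compared by two-sided exact permutation over mice, adjusted over 6 tests. DESeq2 1.42.0, limma 3.58.1, R 4.3.3, Python 3.11.15, scipy 1.17.1 and matplotlib 3.10.9 were used. The labels number the samples of a group, and the study describes them as 3 biological replicates per group. Intervals and floors of 3 counts cover counting error only.

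Members and all 25 gene lists were chosen with earlier results of these data known. Named genes were the rule genes and coreceptors, any called gene (at most 15 each way), up to 8 genes each way of smallest unadjusted p at an average log2 CPM of at least 6 without overlap between mice, up to 4 genes of highest level per list, and the 20 genes leading the members. Genes beyond these (among them Foxp3, the Ccr7 partners, Clec2d and the genes of sparse CD8 or CD4 counts) were chosen after their values were seen. Alternatives were other limits on cells, other normalizations and filters, a replicate block, and each mouse left out. Added after seeing the data were the limits on proximal tubule and antigen-presenting RNA, the rule without its limit on 7 genes, the robust spread, the restricted gene set, the sums without single cells, the mean over all draws of the thinning, the lymphocyte share with the limit on 7 genes lifted for T cells only, the receptor list without the rule genes and the CD8 against CD4 test. Results for some genes are not reported here.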

Additional observations from a re-analysis of the deposited data

Results flagged for a closer look

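These genes changed differently in T cells and in the other kept cells of the same mice, by edgeR's interaction test and again with a robust estimate of the spread. Each value is the log2 change in T cells minus that in other cells. Between AKI-CKD and Control it was 1.98 for Clec2d, 2.47 for Map4, 1.21 for Nfkbia and -0.74 for Malat1. Clec2d was called in 6 of 6 fits that left out 1 mouse, Map4 in 5, Nfkbia in 3 and Malat1 in 2. None of the 4 was called against C1q cells, over the genes tested in T cells alone, or in members under 5% proximal tubule UMIs. Malat1 was not called in members under 3 antigen-presenting and S100a8/9 UMIs either, nor Nfkbia when genes of low counts were kept. A single cell held 64 of the 83 Map4 UMIs in the T cells of AKI-CKD mouse 2, and without it the AKI-CKD mean was 88.3 in place of 144 CPM.

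Between AKI-CKD+EGT and AKI-CKD it was -1.50 for Nfkbia and -2.36 for Map4, each called in 6 of 6 such fits. None of the genes of this comparison was called against C1q cells or over the genes tested in T cells alone, and in members under 5% proximal tubule UMIs Nfkbia and S100a8 were called and the others were not. The value was -1.14 for Rgs2 and -1.29 for Ms4a4b, called in 2 of 6 each, and -1.78 for Ccr7, called in 3. Rgs2 averaged 610 CPM in AKI-CKD and 418 CPM with EGT in T cells, and 18.4 and 23.9 CPM in other kept cells. Ms4a4b was not lower in T cells, at 655 and 755 CPM, and in other kept cells it was at 0.565 and 1.41 CPM. Ccr7 was at 277 and 150 CPM in T cells and at 3.08 and 4.50 CPM in other kept cells. Ms4a4b and Ccr7 are lymphocyte genes, and the other kept cells include B cells and T cells that did not meet the rule. It was 5.80 for S100a8, a neutrophil gene with 140 UMIs in 1 cell of AKI-CKD+EGT mouse 2 that also held 178 UMIs of S100a9, and it was not called in members under 3 antigen-presenting and S100a8/9 UMIs. It was 4.50 for Atp6v1g3, 2.52 for Mal and 2.27 for Tmem213, which are genes of distal tubule and collecting duct cells. Atp6v1g3 was called in 3 of 6 fits, and S100a8, Mal and Tmem213 in 4. Their mean levels in T cells went from 0.870, 12 and 12.5 CPM in AKI-CKD to 46.5, 113 and 97.5 CPM in AKI-CKD+EGT, against 71.0, 69.7 and 109 to 88.1, 113 and 155 CPM in other kept cells. Atp6v1g3 had 22 UMIs in all members and stood at 6.14, 20.9 and 112 CPM in the AKI-CKD+EGT mice, with a mean of 13.5 CPM without mouse 3. In AKI-CKD+EGT mouse 1 a single cell held 20 of 38 Mal UMIs and a single cell 27 of 30 Tmem213 UMIs, and without them the AKI-CKD+EGT means were 73.4 and 42.6 CPM.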

How the results depend on the processing

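T cells were few, so that 31 to 133 cells stand behind each mouse, and no share test could pass the threshold with 3 mice a group. The share of T cells differed between AKI-CKD+EGT and AKI-CKD by 0.00619 percentage points in thinned cells and 0.0340 without the limit on the 7 other-cell genes, by -0.188 to 0.0554 with 1 mouse left out, and by 0.0283 and 0.0554 without AKI-CKD+EGT mouse 3 and AKI-CKD mouse 2. In members with no UMI of the 7 genes this difference was -0.146 percentage points. With the limit on the 7 genes lifted for T cells but not for B cells, the lymphocyte share differed by -7.20 percentage points. Between AKI-CKD and Control the share of kept cells ranged from 0.10 (without AKI-CKD mouse 2) to 0.319 with 1 mouse left out. The CD8 share differed between AKI-CKD and Control by -5.28 percentage points in cells under 5% proximal tubule UMIs (3.56 to 15.7 with 1 mouse left out), and between AKI-CKD+EGT and AKI-CKD by 2.68 with at least 3 T cell UMIs (-11.7 to 5.81, and 5.81 and 0.539 without AKI-CKD+EGT mouse 3 and AKI-CKD mouse 2). Thinned shares of kept cells are from 1 random draw. The Nkg7 share differed by 2.11 and 3.14 as the mean over all draws, by -1.53 without thinning between AKI-CKD and Control (2.68 to 5.46 with 1 mouse left out) and by -1.06 to 3.83 with 1 mouse left out between AKI-CKD+EGT and AKI-CKD, with -1.06 without AKI-CKD+EGT mouse 1 and -0.215 without AKI-CKD mouse 1. In members under 5% proximal tubule UMIs it differed by 2.45 between AKI-CKD and Control. There it differed by 10.6 between AKI-CKD+EGT and AKI-CKD, and the mice overlapped in both comparisons.

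Against 0 genes called between AKI-CKD and Control there were 4 with DESeq2, 63 without the filter on low counts, 1 with only the 6 mice compared (Magi2), 2 in members with no UMI of the 7 other-cell genes (Magi2 and Tnfrsf4), 1 without the 10% of members with most UMIs (Magi2), and 0 to 4 with 1 mouse left out (Tnfrsf4 without Control mouse 1, and Cd74, Gm42674, Malat1 and Map4 without AKI-CKD mouse 1). Against 0 between AKI-CKD+EGT and AKI-CKD there were 3 with DESeq2, 56 without the filter, 2 with no UMI of the 7 genes (Mir142hg and Nudt4), and 0 to 3 with 1 mouse left out (Cd74, Esrrg and Map4 without AKI-CKD mouse 1, Ccl3 and Ccl4 without AKI-CKD mouse 2). The interaction calls, 14 and 32, were 1 and 1 against C1q cells, 0 and 0 over genes tested in T cells, 5 and 12 in members under 5% proximal tubule UMIs, and 4 and 10 with the robust spread, and the first was 9 in members under 3 antigen-presenting and S100a8/9 UMIs. With 1 mouse left out they ranged from 7 to 21 and from 10 to 52 (7 without AKI-CKD mouse 1 or mouse 3 in the first, and 17, 52 and 10 without AKI-CKD mouse 1, 2 and 3 in the second). CD8-typed against CD4-typed calls were 30 without the filter and 4 to 7 with 1 mouse left out. The cause of these shifts was not tested.

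A replicate block gave 0 and 0 calls in the T cell comparisons. The labels link same-numbered mice of different groups by the number alone and name no batch. The correlation of their deviations from the group means over 2321 genes ranged from -0.258 to 0.0552. These values cannot tell whether such mice shared a batch. The fits without the block also gave 0 and 0 calls, so the block could only have added calls, and it added none.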
